A study of Mus musculus with 23 samples.

Results

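Lgals1 and Lgals3, which encode galectin-1 and galectin-3, Anxa1, which encodes annexin A1, and S100a6, which encodes the calcium-binding protein S100A6 (calcyclin), were followed through the differentiation of mouse A404 cells. They are 4 of 8683 genes measured, each by 1 probe that carries its symbol alone. They were chosen by their log2 ratios in the 4 groups of these same arrays, where they rose steeply, so their levels and differences are given as a description, with standard errors and without a test. A404 is 1 clone of the P19 embryonal carcinoma line, in which, as background, a puromycin resistance gene is driven by the Acta2 promoter (Acta2 encodes the alpha-actin of smooth muscle), so that puromycin keeps cells in which this promoter is active. Control cells (n = 6 arrays) were undifferentiated, untreated and harvested near confluence. RA48 cells (n = 5) had 1 µmol/L all-trans retinoic acid for 48 h and RA96 cells (n = 6) for 96 h, both starting at about 30% confluence. Puromycin cells (n = 6) had 1 µmol/L retinoic acid for 96 h and then puromycin for 48 h, and whether retinoic acid was kept on is not given. Each array set red-labelled RNA from 5 to 6 plates against green-labelled RNA from pooled whole embryos of day 17.5. Whether replicates are separate cultures is not stated, so the spread between arrays may be technical. Cell density and time in culture cannot be told apart from treatment.

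As background, galectins are lectins that bind beta-galactosides. Galectin-1 carries a carbohydrate recognition domain and works as a dimer outside the cell and at its surface, and galectin-3 joins such a domain to a long repeat-rich tail through which it forms lattices with glycoproteins. Annexins bind phospholipid membranes when calcium rises. Annexin A1 is induced by glucocorticoids, restrains phospholipase A2 and signals through formyl peptide receptors. S100 proteins are small EF-hand dimers, several of which clasp the N-terminal tail of an annexin: S100A10 that of annexin A2 and S100A11 that of annexin A1, while S100A6 binds several annexins and the ubiquitin-ligase adaptor CacyBP. Several of these proteins are abundant in mesenchymal and smooth muscle cells.

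All values are log2 ratios of cell RNA over embryo RNA, converted from deposited values read as log10. The base is not stated in the sources used here. A value of 0 means the same signal as in the embryo pool, and because each gene has its own embryo level, levels are not compared between genes. In bulk RNA, fewer expressing cells and less RNA per cell cannot be told apart. The arrays fell into 2 sets that no label names, found from the deviations of all 17863 rows (8683 genes and 9180 other probes) from their group means: 11 arrays in the first set and 12 in the second, with 3 and 3 of Control, 3 and 2 of RA48, 2 and 4 of RA96 and 3 and 3 of Puromycin. Replicates 1 to 3 of each group fell in the first set and higher numbers in the second, except RA96 replicate 2, which fell in the second. The component that divides the sets accounted for 48.9% of the variance left within groups, so changes are also given within each set.

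The sequence before the start site is shown for the 3 of 4 members with an entry in the RefSeq promoter sequences used here (GRCm38.p6), which leaves out Lgals1, because these genes rose together. Each window is the 250 bases before the start, on the gene's own strand: chr14:47373610-47373859 (+) for Lgals3, chr19:20390672-20390921 (-) for Anxa1 and chr3:90612644-90612893 (+) for S100a6. Capitals mark motif matches on either strand.
Lgals3: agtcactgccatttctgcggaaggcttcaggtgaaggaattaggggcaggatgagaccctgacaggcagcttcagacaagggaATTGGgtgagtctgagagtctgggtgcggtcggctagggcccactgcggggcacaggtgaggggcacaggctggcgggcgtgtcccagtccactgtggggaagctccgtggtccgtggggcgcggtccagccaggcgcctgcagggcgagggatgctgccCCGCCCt
Anxa1: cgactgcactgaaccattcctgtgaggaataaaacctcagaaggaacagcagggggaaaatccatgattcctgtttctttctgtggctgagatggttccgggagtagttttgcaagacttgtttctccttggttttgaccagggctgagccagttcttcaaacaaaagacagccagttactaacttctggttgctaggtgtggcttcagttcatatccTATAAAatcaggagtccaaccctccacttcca
S100a6: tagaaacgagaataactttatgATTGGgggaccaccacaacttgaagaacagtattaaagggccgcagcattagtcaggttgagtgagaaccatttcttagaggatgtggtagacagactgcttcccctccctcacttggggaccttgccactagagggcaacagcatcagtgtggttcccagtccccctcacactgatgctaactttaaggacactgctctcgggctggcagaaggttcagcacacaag

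The 3 windows differed in composition and shared few motifs. Lgals3 had a window of 66.0% G+C with 13 CpG dinucleotides, against 46.0% and 2 for Anxa1 and 50.0% and 3 for S100a6, where the median of 32851 windows was 52.4% and 6. The motifs searched on both strands were the GC box GGGCGG (in 32.7% of all windows), the TATA box TATAAA (12.4%), CCAAT (33.8%), the E-box CACGTG (6.02%), the AP-1 site TGANTCA (6.75%), the nuclear receptor half-site AGGTCA (14%) and the CArG box bound by serum response factor (1.47%). Anxa1 had a TATA box 32 to 27 bases before its start. Lgals3 had a GC box 7 to 2 bases and a reversed CCAAT 167 to 163 bases before its start, and S100a6 a reversed CCAAT 228 to 224 bases before its start. No match overlapped another, and none of the other motifs matched in these windows.

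Lgals1 was low in undifferentiated cells and had made most of its log2 rise after 48 h of retinoic acid. Its log2 ratio ran from -3.82 to -2.13 in Control (median -2.90), a mean 7.62-fold below the embryo pool. RA48 arrays read 0.44, 0.27, 0.49, 2.03 and 1.94. All of them lay above every Control array, by a gap of 2.40 or more, but the 3 lower values came from the first array set and the 2 higher from the second. RA96 arrays lay between 1.43 and 2.26 (median 1.94) and Puromycin arrays between 0.82 and 2.37 (median 1.71), so the 3 treated groups overlapped. The order of means was Control (-2.93 ± 0.78, SD, n = 6), RA48 (1.03 ± 0.87, n = 5), Puromycin (1.66 ± 0.66, n = 6) and RA96 (1.85 ± 0.32, n = 6), and neighbours among the last 3 differed by less than the SD of at least 1 of the pair when all arrays were pooled. The second set read higher than the first by 1.40 in Control, 1.58 in RA48, 0.58 in RA96 and 1.16 in Puromycin. Within the first set Lgals1 changed by 1.06 from 48 to 96 h and by -0.38 after puromycin, with no overlap at either step. Within the second set it changed by 0.06 and 0.20, with overlap at both. The sign of its last step therefore differed between the 2 sets, while RA48 and Puromycin did not overlap within either.

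Lgals3 rose as steeply but did not stay high. Control arrays ran from -4.65 to -3.17 (median -3.54), a mean 13.1-fold below the embryo pool. RA48 arrays read 0.21, 0.25, 0.05, 0.70 and 0.52, all at or just above the embryo level and at least 3.22 above every Control array. RA96 arrays spanned -0.23 to 0.21 (median -0.13), overlapping RA48, although within each array set every RA96 array was below every RA48 array. Puromycin arrays spanned -1.73 to -0.83 (median -1.25), below all RA96 arrays and still above all Control arrays. The mean was highest in RA48 (0.35 ± 0.26, SD, n = 5), followed by RA96 (-0.06 ± 0.18, n = 6), Puromycin (-1.27 ± 0.40, n = 6) and Control (-3.71 ± 0.55, n = 6). RA48 and RA96 overlapped in that order, whereas the other neighbours did not. The step after puromycin was -0.70 within the first set and -1.64 within the second, so its size differed between the sets while its direction did not.

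Anxa1 rose at each step and passed from far below to far above the embryo pool. Control arrays ran from -4.36 to -3.44 (median -3.96), a mean 15.1-fold below it. RA48 arrays read -0.14, -0.14, -0.14, 0.11 and 0.25, close to the embryo level. RA96 arrays spanned 1.97 to 2.57 (median 2.41), above every RA48 array by 1.72 or more. Puromycin arrays spanned 2.53 to 3.34 (median 3.22), a mean 8.28-fold above the embryo pool. Puromycin and RA96 overlapped by 0.05 when all arrays were pooled and did not overlap within either set. The 4 means in the order of treatment were -3.91 ± 0.38 (SD, n = 6), -0.01 ± 0.18 (n = 5), 2.34 ± 0.25 (n = 6) and 3.05 ± 0.34 (n = 6). Of the 8683 genes measured, only 1 had a larger difference between Puromycin and Control.

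S100a6 climbed in 3 separate steps. Control arrays ran from -2.20 to -1.73 (median -1.90), a mean 3.76-fold below the embryo pool. RA48 arrays read 0.76, 0.90, 0.83, 1.39 and 1.29, and RA96 arrays spanned 2.09 to 3.29 (median 2.66). Puromycin arrays lay within 4.01 to 4.27 (median 4.02), a mean 16.9-fold above the embryo pool. No pair of groups overlapped, with gaps between neighbouring groups of 2.49, 0.70 and 0.72. The means were -1.91 ± 0.17 (SD, n = 6), 1.03 ± 0.29 (n = 5), 2.65 ± 0.44 (n = 6) and 4.08 ± 0.10 (n = 6) in Control, RA48, RA96 and Puromycin. Set means differed by 0.05 in Control and in Puromycin, so its net change was 5.99 in each set alone. The step from 48 to 96 h was 2.05 in the first set and 1.20 in the second.

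**Figure D1:**
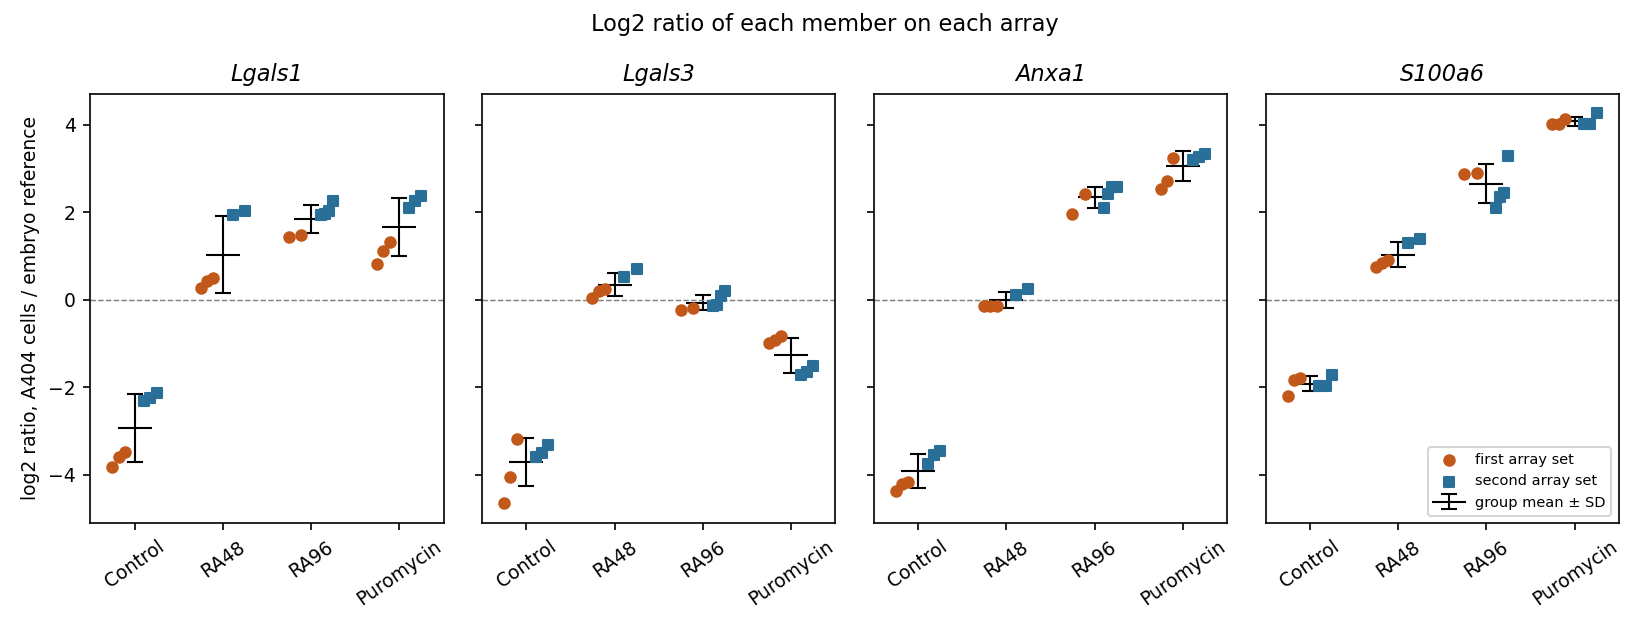
Log2 ratio of A404 cell RNA over embryo reference RNA (vertical axis) on each of the 23 arrays by group, 1 panel per gene. Circles and squares mark the first and second array set, bars show the group mean ± SD, and the dashed line at 0 marks the embryo level; Lgals3 is highest in RA48 while S100a6 rises through all groups to 4.01 or more in Puromycin.

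The members thus shared the first step and parted afterwards. From Control to RA48 the differences were 3.96 ± 0.39 (SE) for Lgals1, 4.06 ± 0.22 for Lgals3, 3.90 ± 0.18 for Anxa1 and 2.95 ± 0.17 for S100a6, or 15.6-, 16.6-, 14.9- and 7.71-fold. The groups did not overlap for 4 of 4 members, against 18.1% of all rows, a comparison from which nothing is read because the members were chosen by these values. The same held between Puromycin and Control, where 28.3% of all rows did not overlap. From RA48 to RA96 Anxa1 differed by a further 2.35 ± 0.18 (5.10-fold) and S100a6 by 1.62 ± 0.17 (3.07-fold), and for both the groups did not overlap (10.3% of all rows). Lgals1 differed by 0.81 ± 0.39 and Lgals3 by -0.41 ± 0.22 over the same interval, with overlap. From RA96 to Puromycin S100a6 gained 1.42 ± 0.16 (2.68-fold) and Anxa1 0.71 ± 0.17 (1.64-fold), while Lgals3 dropped by 1.21 ± 0.21 and was 2.31-fold lower. Lgals1 differed by -0.18 ± 0.37, and by 0.01 with the array set as a block. The groups did not overlap for S100a6 and Lgals3 at this step (4.60% of all rows). Among 8683 genes S100a6 had the eleventh largest gain there (rank 11) and Lgals3 the nineteenth largest drop (rank 19).

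**Figure D2:**
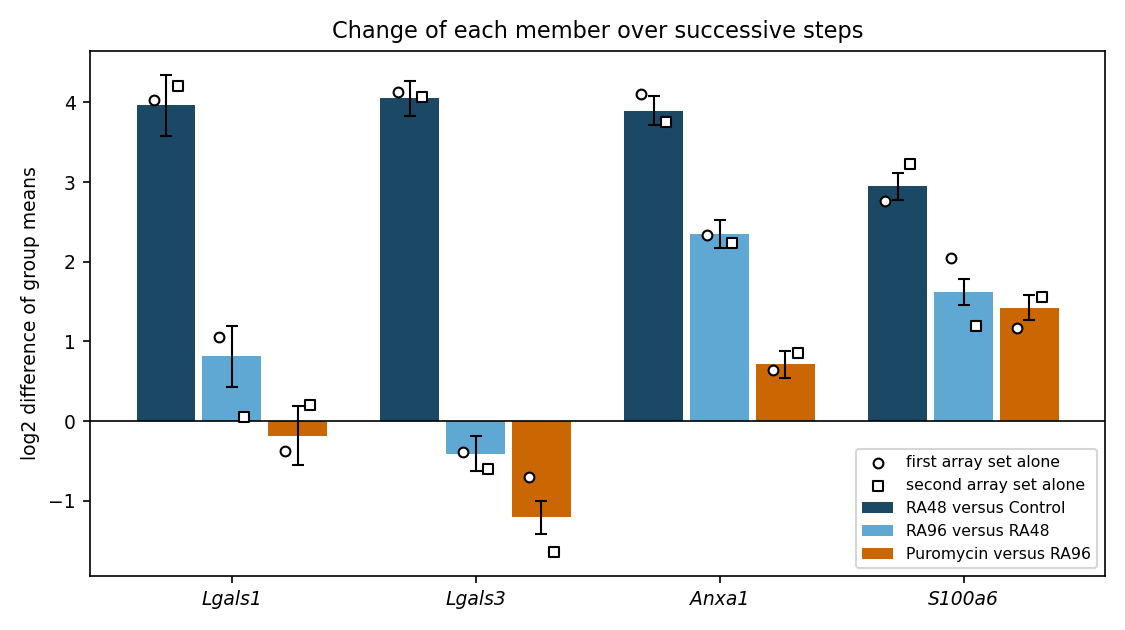
Log2 difference of group means (vertical axis) for each gene over the 3 successive steps, as bars with their SE. Open circles and squares give the same difference within the first and second array set; for Lgals1 the step to Puromycin is -0.38 in the first set and 0.20 in the second.

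Set against the net change from Control to Puromycin, the timing of the members was ordered. At 48 h Lgals1 had 86.3% of its net change of 4.59, Anxa1 56.0% of 6.96 and S100a6 49.2% of 5.99. Lgals3 stood at 166.3% of its net change of 2.44 and had lost part of the rise by 96 h, when it stood at 149.5%. At 96 h Lgals1 was at 104%, Anxa1 at 89.8% and S100a6 at 76.2%. In both array sets S100a6 had the lowest share at 48 and at 96 h and Lgals3 the highest. Across the 23 arrays Anxa1 and S100a6 ran closest together (Pearson r = 0.98, Spearman coefficient 0.97), and Lgals3 and S100a6 least (r = 0.65, Spearman coefficient 0.26). These coefficients describe arrays that share 1 reference and fall into 4 groups, some of which overlapped for every member but S100a6. They mostly read the order of the groups, and no p is given.

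The genes whose course was most like each member differed accordingly. Likeness was the Pearson r of log2 ratios over the 23 arrays among 8384 named genes, and it carries the same limits. Anxa1 was closest to B2m, the light chain of MHC class I (r = 0.995), to Acta2 (0.994), to Ccn2, a matricellular growth factor gene (0.993), to Anxa5 (0.992) and to Wdr1, a partner of cofilin in actin turnover (0.989). S100a6 was closest to Anxa2 (0.994), followed by Bicd2, a dynein adaptor (0.993), Thbs1, the matrix protein thrombospondin-1 (0.990), Prss23, a serine protease (0.989), and Cdkn1a, the cell cycle inhibitor p21 (0.989). Lgals1 was closest to Reep5, which shapes the endoplasmic reticulum (0.986), Tcaf1 (0.986), Tagln2, a calponin-like actin-binding protein (0.985), Cdh2, which encodes N-cadherin (0.984), and Amotl1, an angiomotin of cell junctions (0.982). Lgals3 was closest to Tshz1, a zinc-finger factor (0.972), Capns1, the small subunit of calpains (0.969), Npr2, a natriuretic peptide receptor (0.962), Macroh2a1, a histone variant (0.960), and Arhgap28 (0.959). Acta2, the gene behind the selection, had mean ratios of -4.90, -0.34, 1.87 and 2.40 in Control, RA48, RA96 and Puromycin, beside -3.91, -0.01, 2.34 and 3.05 for Anxa1.

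**Figure D3:**
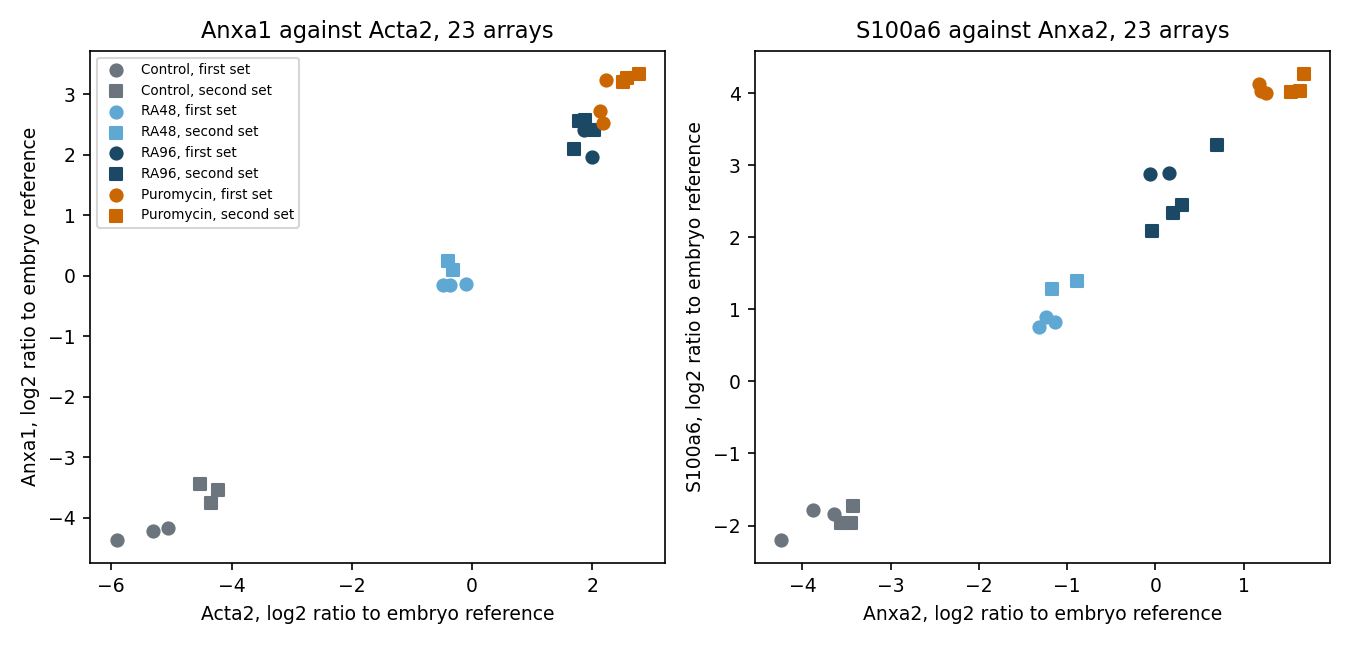
Left, Anxa1 against Acta2, and right, S100a6 against Anxa2, as log2 ratios to the embryo reference on both axes, 1 point per array. Colours mark the groups and circles and squares the first and second array set; the points form 1 rising series of separate groups in each panel, with Pearson r = 0.994 over 23 arrays in both.

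The relatives of the members were not used to pick them and were tested with limma over all 17863 rows, with Benjamini-Hochberg adjustment and a call at an adjusted p under 0.05. Their lists were, however, chosen with earlier results of these data known. Of 35 other galectin, annexin and S100 genes listed, 17 were measured. At 48 h 9 of the 17 rose and 1 fell, where 26.0% of all rows (11.9% higher, 14.1% lower) and 34.4% of genes were called, and their median difference was 0.65 against -0.06 over all rows. From 48 to 96 h 4 rose and 0 fell (19.8% of all rows, 10.4% higher and 9.42% lower), or 5 and 3 with the array set as a block, and after puromycin 2 rose and 0 fell (5.27%, 3.17% higher and 2.10% lower). Without RA96 replicate 3 the last count was 4. Between Puromycin and Control 11 rose and 0 fell (46.3% of all rows, 19.8% higher and 26.4% lower, and 53.2% of genes). With group and array set as a random block, which estimates the correlation between arrays, the relatives called were 6 at 48 h, 0 after puromycin and 7 between Puromycin and Control. Counts of this kind stand beside the background only as a description.

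Annexins were 8 of the 17 relatives measured, 5 of the 10 called at 48 h and 7 of the 11 called between Puromycin and Control. Of all genes 34.4% and 53.2% were called in these 2 comparisons. Anxa2, whose protein links membranes to actin and forms a tetramer with S100A10, had mean ratios of -3.70 ± 0.31, -1.15 ± 0.16, 0.21 ± 0.28 and 1.41 ± 0.23 (SD) over the 4 groups, none of which overlapped. It rose by 2.55 ± 0.15 (SE, limma adjusted p = 1.95e-11), by 1.36 ± 0.15 (1.95e-06) and by 1.21 ± 0.15 (2.37e-05) at the 3 steps, a net 34.5-fold change. The last step had an adjusted p = 0.138 with the random block. Anxa5, which binds phosphatidylserine, rose by 2.33 ± 0.14 (limma adjusted p = 3.45e-11), 1.10 ± 0.14 (1.49e-05) and 0.56 ± 0.14 (0.0159), the last of these by 0.45 within the first array set (0.199) and 0.63 within the second (0.00288), with an adjusted p of 1 under the random block. Anxa3 rose by 3.23 ± 0.23 at 48 h (limma adjusted p = 2.87e-10) and differed by 0.58 ± 0.23 (0.0799) and 0.15 ± 0.22 (0.817) later. Anxa11, a partner of S100A6, rose by 1.01 ± 0.15 at 48 h (limma adjusted p = 1.61e-05) and Anxa6 by 0.65 ± 0.21 (0.0225, and 0.164 with the random block), higher on both of its probes. Anxa4 and Anxa8 rose only between Control and Puromycin among the 4 comparisons made, by 0.28 ± 0.08 and 0.97 ± 0.24 (limma adjusted p = 0.00792 and 0.00250, and 0.253 and 0.101 with the random block), and Anxa7 passed in none (0.25 ± 0.16, limma adjusted p = 0.217, between Puromycin and Control). With the array set as a block Anxa7 was higher in 2 of these comparisons and lower from 48 to 96 h.

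S100 genes gave a shorter list. S100a11, whose protein pairs with annexin A1, rose by 1.84 ± 0.25 at 48 h (limma adjusted p = 5.71e-06) and by 1.31 ± 0.25 from 48 to 96 h (0.00102), and its Puromycin arrays lay within 1.48 to 1.65. S100a10, the partner of annexin A2, rose by 2.11 ± 0.25 at 48 h (9.40e-07 by limma, adjusted) and differed by -0.30 ± 0.25 (0.430) and 0.58 ± 0.24 (0.192) at the later steps. With the array set as a block both later differences of S100a10 passed, the first as a fall. S100a13 rose by 0.71 ± 0.17 at 48 h (limma adjusted p = 0.00313, 0.0587 within the second array set and 0.101 with the random block). S100g, a vitamin D-dependent calcium carrier, rose by 1.01 ± 0.32 (0.0201), a call lost without RA48 replicate 1 (0.0535) or 3 (0.0543), or with the random block (0.114). S100a9, a protein of neutrophils and monocytes, differed by 0.39 ± 0.60 between Puromycin and Control (limma adjusted p = 0.630). On the RefSeq map the protein-coding neighbours of S100a6 are S100a5 before and S100a7a after it, in a row of S100 genes on chromosome 3, and of the 4 genes on each side S100a9 alone had a probe of its own here.

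Other galectins did not follow Lgals1 and Lgals3 in size. Lgals4, Lgals7 and Lgals9 were not called in any of the 4 comparisons by limma, nor at an unadjusted p under 0.05, and Lgals9 differed by 0.01 ± 0.16 at 48 h (limma adjusted p = 0.965). Within the second array set Lgals9 was higher after puromycin than in Control, by 0.80 (4.62e-05, limma adjusted p), and by -0.22 within the first (0.151). Lgalsl, a galectin-like gene, fell by 0.32 ± 0.08 at 48 h (limma adjusted p = 0.00215, and 0.216 within the second array set) and then rose by 0.44 ± 0.08 (0.000300). With the random block these adjusted p-values were 0.303 and 0.292. Lgals8 shares its probes with Capn2 and was not assessed.

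**Figure D4:**
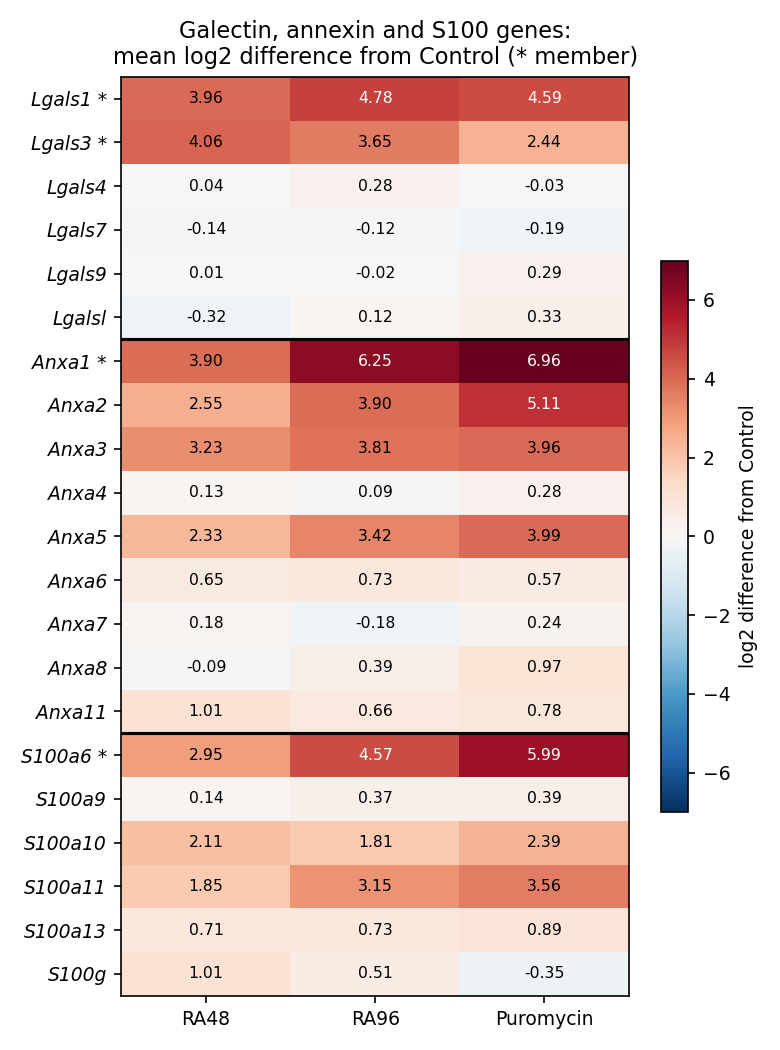
Mean log2 difference from Control in RA48, RA96 and Puromycin for the galectin, annexin and S100 genes measured, with the 4 members marked by an asterisk and the value printed in each cell. Colour runs from blue (lower) through white to red (higher); Anxa1 (6.96) and S100a6 (5.99) have the largest values in Puromycin, and the galectins other than Lgals1 and Lgals3 stay within -0.32 and 0.33.

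Glycoproteins to which galectins bind rose with them in part. Of 16 measured ligand genes 9 rose and 1 fell at 48 h, 7 rose and 1 fell from 48 to 96 h, 1 rose and 1 fell after puromycin, and 11 rose and 1 fell between Puromycin and Control. Over all rows 26.0%, 19.8%, 5.27% and 46.3% were called in these comparisons, and 34.4%, 22.4%, 7.82% and 53.2% of genes. The list's medians were 0.72, 0.28, 0.03 and 0.77, against -0.06, -0.02, -0.01 and -0.09 over all rows. Fn1, the matrix protein fibronectin, rose by 2.40 ± 0.37 at 48 h, higher on both of its probes (limma adjusted p = 2.87e-05). Itgb1, the beta-1 integrin chain, rose by 1.65 ± 0.28 (limma adjusted p = 8.43e-05) and then by 1.42 ± 0.28 (0.00123, and 0.0857 with the random block). Cd44, the hyaluronan receptor, rose at all 3 steps, by 1.25 ± 0.13, 0.96 ± 0.13 and 0.60 ± 0.13 (limma adjusted p = 1.73e-07, 3.00e-05 and 0.00492), although at the last 1 of its 3 probes was lower and the adjusted p was 0.553 with the random block. Itga6, a laminin-binding integrin chain, was the ligand gene that fell at 48 h, by 0.62 ± 0.13 (limma adjusted p = 0.000923, and 0.132 with the random block). Lgals3bp, a secreted ligand of galectin-3, differed by -0.36 ± 0.16 at 48 h (0.104) and passed in no comparison. Of 13 enzymes that build the glycans galectins read, 4 rose and 0 fell at 48 h, or 5 and 2 with the array set as a block, where 34.4% of genes were called. Among the 4 that rose were Mgat5, which adds the branch favoured by galectin-3 (0.83 ± 0.14, limma adjusted p = 1.00e-04, and 0.106 with the random block), and St6gal1, whose sialic acid caps block galectin-1 (0.75 ± 0.07, 1.78e-08). The others were Mgat3 (0.82 ± 0.16, limma adjusted p = 0.000392, and 0.043 with the random block) and B4galt5 (0.98 ± 0.24, 0.0039, and 0.0615 with the random block). St6gal1 then fell by 0.33 ± 0.07 and 0.46 ± 0.07 at the later steps (limma adjusted p = 0.00217 and 0.000119, and 0.355 and 0.226 with the random block).

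A list of genes around annexin A1 had 8 measured members: Pla2g4a, Ptgs2, Ptges and Alox5ap of eicosanoid synthesis, Nr3c1, Tsc22d3 and Dusp1 of the glucocorticoid response, and Egfr. Of these 1 rose and 1 fell at 48 h, 4 rose and 0 fell from 48 to 96 h, 3 rose and 0 fell after puromycin, and 5 rose and 1 fell between Puromycin and Control (median 1.58 against -0.09 over all rows). The shares of genes called in these 4 comparisons were 34.4%, 22.4%, 7.82% and 53.2%. Formyl peptide receptor genes were not analysed here. Ptgs2, the inducible cyclooxygenase, rose by 2.10 ± 0.55 from 48 to 96 h (limma adjusted p = 0.0106) and by 2.44 ± 0.53 after puromycin (0.00655), with adjusted p-values of 0.112 and 0.623 under the random block. Pla2g4a, the cytosolic phospholipase A2 that annexin A1 restrains, rose by 2.06 ± 0.21 between Puromycin and Control (limma adjusted p = 2.70e-08), and Nr3c1, the glucocorticoid receptor, by 1.79 ± 0.12 (7.03e-11). Alox5ap, the 5-lipoxygenase activating protein, fell by 1.92 ± 0.15 (limma adjusted p = 4.15e-10).

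Of 9 measured genes listed as S100A6 partners, 3 rose and 5 fell between Puromycin and Control, where 53.2% of genes were called (median -0.41 against -0.09 over all rows). Cacybp fell by 1.28 ± 0.10 at 48 h (limma adjusted p = 1.51e-09), when S100a6 was 2.95 higher, and stayed lower in Puromycin by 0.80 ± 0.10 (5.18e-07). Ahnak, a giant scaffold that binds the annexin A2 complex, rose by 4.52 ± 0.16 over the whole course (limma adjusted p = 5.74e-16). The co-chaperone genes Stip1, Fkbp4 and Ppp5c fell by 1.11 ± 0.30, 0.86 ± 0.13 and 0.55 ± 0.08 (limma adjusted p = 0.00451, 1.55e-05 and 7.97e-06).

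Markers of other cells that also hold these proteins were read beside the members. For macrophages and leukocytes 3 of 10 markers were measured (Ptprc, Lyz2 and Fcer1g), all 3 below the embryo level on every array, with array means of -1.74 to -1.06 in Control and -1.98 to -0.96 in Puromycin. None was called by limma in the 4 comparisons (0 at an unadjusted p under 0.05). With the array set as a block 1 of the 3 was called in each comparison. For primitive endoderm 5 of 8 were measured, and array means ran from -1.22 to -0.86 in Control, -0.23 to -0.10 in RA48, -0.08 to 0.17 in RA96 and 0.03 to 0.17 in Puromycin. Of the 5, 4 rose and 0 fell at 48 h, where 34.4% of genes were called. Gata6 rose by 2.04 ± 0.18 and Dab2 by 1.42 ± 0.19 at 48 h (limma adjusted p = 9.87e-09 and 4.13e-06), while Gata4 differed by -0.28 ± 0.19 (0.313). Sox17 rose by 0.44 ± 0.15 at 48 h (limma adjusted p = 0.0338, and 0.539 with the random block). Foxa2 rose by 0.86 ± 0.12 at 48 h (limma adjusted p = 1.02e-05) and fell by 0.72 ± 0.12 from 48 to 96 h (0.000312, and 0.123 with the random block). Between Puromycin and Control Foxa2 differed by 0.09 ± 0.12 (limma adjusted p = 0.579). The part of these endoderm markers in the members' course was not tested. Of 6 measured smooth muscle markers 4 rose and 0 fell between Puromycin and Control, where 53.2% of genes were called. Acta2 rose by 7.30 ± 0.21 (limma adjusted p = 1.51e-17) and Cnn1, the smooth muscle calponin, by 1.17 ± 0.19 (3.28e-05). Selection works through the Acta2 promoter, so this comparison is not an independent test of Acta2, 1 of the 4 markers that rose. Myh11, the myosin heavy chain that defines mature smooth muscle, differed by 0.19 ± 0.57 (0.813), and its mean over both array sets lay below the embryo level in all 4 groups. In the first set its means were -2.16, -1.85, -1.96 and -1.89 in Control, RA48, RA96 and Puromycin. In the second set they lay near the embryo level, at -0.13, 0.08, -0.18 and -0.02. Mylk, the myosin light chain kinase, differed by 0.17 ± 0.75 between Puromycin and Control (limma adjusted p = 0.875). With the array set as a block it rose by 1.15 at 48 h (limma adjusted p = 7.48e-05) and fell by 1.33 after puromycin (8.04e-05). Nanog, a pluripotency factor, fell by 1.15 ± 0.16 (limma adjusted p = 5.46e-06).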

How the data were processed

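The authors deposited 1 table with a log ratio per probe and array, quantified with Agilent Feature Extraction on an Agilent G2565AA scanner per the labels. Base, centring and direction are not stated. The deposited values were read as log10 of red (cells) over green (embryo), the form in which this software writes its log ratios, and divided by 0.301 to give log2 ratios. Array medians lay between -0.071 and 0.026. Of 21446 rows, 1166 without a gene and with at most 6 significant digits were left out as probable control spots. Probes with 1 symbol were averaged per gene, giving 17863 rows. Group means of 23 arrays were fitted with limma 3.58.1 (R 4.3.3), with 5 to 6 arrays per group, which limits the precision. No signal or background was used, so no detection limit can be given. The fit was tested on simulated data with known changes. Tables and figures used Python 3.11.15, numpy 2.4.6, pandas 2.3.3 and matplotlib 3.10.9. The random block used statmod 1.5.0.

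The members, the gene lists and the alternatives were chosen with earlier results of these data known. Genes named are the members, up to 3 called rises and 3 falls per list and comparison, Anxa2, S100a10, S100a11, Cacybp, Lgals3bp, Acta2 and Nanog, and the 5 genes most like each member. Anxa4, Anxa6, Anxa7, Anxa8, S100a9, Lgals4, Lgals7, Lgals9, Gata4, Myh11 and Mylk lie outside this rule and are given as further members of their lists. Array sets are the sign of the first principal component of deviations from group means, so p-values that use them are optimistic.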

Additional observations from a re-analysis of the deposited data

Results flagged for a closer look

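In 84 groups of arrays (the members and their 17 relatives in each of 4 groups), 4 held 1 array that stood apart from the others by Dixon's criterion at 95%, which flags about 5% of groups by chance. None of them belonged to a member. Lgals7 read -0.65 in Control replicate 3, with the others from -1.10 to -1.0. Lgals9 read -1.98 in RA96 replicate 3, with the others from -1.54 to -1.28. Anxa5 read 0.65 in RA96 replicate 5, with the others from 0.90 to 1.01. S100g read -0.92 in Control replicate 1, with the others from -0.56 to -0.38.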

How the results depend on the processing

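The members' differences were recomputed with median-centred arrays, quantile and scale normalization, a block for the set, either set by itself, the replicate block, ratios read as log2 and each array left out, and each probe alone was not run because every member has 1 probe. Lgals1 turned direction in Puromycin versus RA96 with the set as a block (0.012) and in the second set (0.201). Within the first set S100a6 moved to 2.05 in RA96 versus RA48, and Lgals3 to -0.701 in Puromycin versus RA96 and 3.04 in Puromycin versus Control. Within the second set S100a6 moved to 3.23 in RA48 versus Control and 1.20 in RA96 versus RA48, Lgals1 to 0.058 in the latter, and Lgals3 to -1.64 in Puromycin versus RA96 and 1.84 in Puromycin versus Control. Read as log2, the values for Lgals1, Lgals3, Anxa1 and S100a6 were 1.19, 1.22, 1.17 and 0.887 in RA48 versus Control and 1.38, 0.734, 2.10 and 1.80 in Puromycin versus Control. They were -0.123, 0.708 and 0.488 for Lgals3, Anxa1 and S100a6 in RA96 versus RA48, then -0.363, 0.214 and 0.429 for Puromycin versus RA96.

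Rows called in RA48 versus Control were 4642, and 7029 with the set as a block, 8135 with array weights and 1437 with group and set as a random block. Rows called in RA96 versus RA48 were 3540 and became 5726 (set block), 6697 (first set), 2267 (second set), 10273 (array weights), 1596 (adjusted p under 0.01) and 248 (random block), and 2227 to 4198 with 1 array left out, lowest without RA48 replicate 3 (2227), 1 (2239) or 2 (2305). Rows called in Puromycin versus RA96 were 942 and became 2281 (set block), 1691 and 1638 (first and second set), 2609 (array weights), 437 (adjusted p under 0.01) and 17 (random block). Rows called in Puromycin versus Control were 8263 and became 3100 (random block). Of the 17 relatives the random block called 6 in RA48 versus Control, 0 in Puromycin versus RA96 and 7 in Puromycin versus Control, in place of 10, 2 and 11. In RA96 versus RA48 4 became 8 with the set as a block and in either set, and 10 with array weights. In Puromycin versus RA96 2 became 6 (set block), 4 and 7 (first and second set), 5 (array weights), 1 (adjusted p under 0.01), 4 (only the 2 groups compared) and 2 to 4 with 1 array left out (4 without RA96 replicate 3). The cause of these moves was not tested.

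With the replicate number as a block the relatives called were 7 (RA96 versus RA48) and 4 (Puromycin versus RA96). Rows called in Puromycin versus RA96 were 1784 with it. Deviations of same-numbered arrays correlated by a median of 0.40, over 0.1 in 30 of 33 pairs, and 4 of 23 arrays correlated best with their own number, so the numbers were not taken to pair the arrays. Same-numbered arrays mostly lie in the same array set, so the median of 0.40 cannot be told apart from shared set membership. No member changed direction under this block.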

Other observations

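With the mean of each array set removed, the genes most like the members changed in part. Anxa3 became the closest to Lgals1 (r = 0.992, from 0.884 before), and Krt8, a keratin of simple epithelia, reached 0.990. Itgb1 (0.994) and Dstn, the actin-severing protein destrin (0.994), came near Anxa1, and Capn2, a calpain (0.994), and Cd44 (0.992) near S100a6. B2m stayed closest to Anxa1 (0.997) and Anxa2 to S100a6 (0.996). Dsc2, a desmosomal cadherin, reached 0.963 with Lgals3. These coefficients are over 23 arrays and carry no test.

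The sign of the difference between the array sets varied by group for Lgals3 and S100a6. For Lgals3 the second set read higher by 0.49 in Control and by 0.44 in RA48, and Puromycin differed by -0.72. For S100a6 the second set read higher by 0.51 in RA48, and RA96 differed by -0.34. What the sets are was not given in the sources used here.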
